A study of Arabidopsis thaliana with 27 samples.

Results

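After infiltration with hrcC bacteria, leaves of the cbp60g,cbp60h,pad4 triple mutant were set against leaves of the cbp60g,cbp60h double mutant, so that the lines differed by the pad4 mutation and shared the loss of CBP60g and CBP60h. The 6 arrays concerned, 3 of each line, were taken by their titles from 27 in the series and paired by the set (experiment) number in the title. All 181 probes with 1 gene name, of 576 on the array, were followed, and none was filtered out.

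Arabidopsis makes salicylic acid when it detects microbes, and the hormone switches on defence genes. CBP60g and CBP60h (also called SARD1) are related transcription factors that turn on salicylic acid synthesis genes. PAD4 is a lipase-like protein that works with EDS1 upstream of salicylic acid and also in parallel to it. The salicylic acid branch is known to oppose the jasmonate and ethylene branch, whose usual marker is the plant defensin gene PDF1.2. The hrcC strain of Pseudomonas syringae pv. tomato DC3000 lacks a working type III secretion system, so it delivers no effectors and is used to trigger the response to microbial patterns.

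All plants were 4 weeks old and of the triple, double, pad4-1 or wild-type Col-0 genotype, or of cbp60h, which entered no fit here. Leaves of the triple and double mutants, pad4-1 and Col-0 were harvested 9 h after hrcC in sets 1 and 2, and 24 h after hrcC in set 3 per the labels. The set 3 array of cbp60h after hrcC is labelled 9 h, and whether the 24 h labels of set 3 are right was not tested. In the same 3 sets these 4 genotypes also received Pseudomonas syringae ES4326 (Psm in the titles) and were harvested at 24 h. The labels name the allele pad4-1 for the single mutant and only pad4 for the triple mutant, and give no allele for cbp60g or cbp60h. Each RNA pooled 2 leaves per plant from 3 pots. The probes of CBP60g, CBP60h and PAD4 and of the photosynthesis genes listed as leaf markers are not among the named ones, so genotype and tissue were not checked here. In whole leaves, fewer cells of a type and less RNA per cell cannot be told apart. Levels below are log2 brightness as deposited, and differences are triple minus double within a set unless another pair is named.

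The median over all 576 probes was lower on each triple mutant array (3.90, 4.01 and 3.94 in sets 1 to 3) than on the double mutant array of its set (4.11, 4.14 and 4.09). The median difference of the 181 genes was -0.16. Differences should be read against this shift, whose part in the results was not tested beyond the rescaled values given below. The 3 pairs had 121 of 181 genes on the same side of 0 in each comparison of one pair with another, and their differences correlated across genes at 0.65 (sets 1 and 2), 0.65 (sets 1 and 3) and 0.73 (sets 2 and 3), a description over genes, which are not independent replicates.

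In the triple mutant 16 genes were lower and 6 higher than in the double mutant after hrcC. The genes that fell furthest were AT1G76960, the glutaredoxin gene GRX480, AT5G52760 of the heavy-metal-associated domain family and PDF1.2. All 3 measured genes of the EF-hand calcium-binding list fell, but that list was chosen with earlier results of these data known. In the wider calmodulin-like and EF-hand family, 3 of 5 genes were called, so this is a description. The peroxidase gene AT5G64120 and the chitinase gene AT2G43620 rose furthest. limma, with the set as a block and 12 hrcC arrays of 4 genotypes sharing the estimate of the spread, thus called 12.2% of the 181 genes at an adjusted p under 0.05, 8.84% lower and 3.31% higher, while 54 genes (29.8%) had an unadjusted p under 0.05. All 3 triple mutant arrays lay below all 3 double mutant arrays for 41 genes (22.7%) and above them for 13 (7.18%), the 22 called genes included. All 3 pairs were lower for 68 genes (37.6%) and higher for 23 (12.7%). Without the set as a block, 2 genes were called, AT1G76960 and AT5G39670. After centring each array on its median, the split was 9 lower and 7 higher, and after quantile normalization it was 10 lower and 5 higher.

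**Figure D1:**
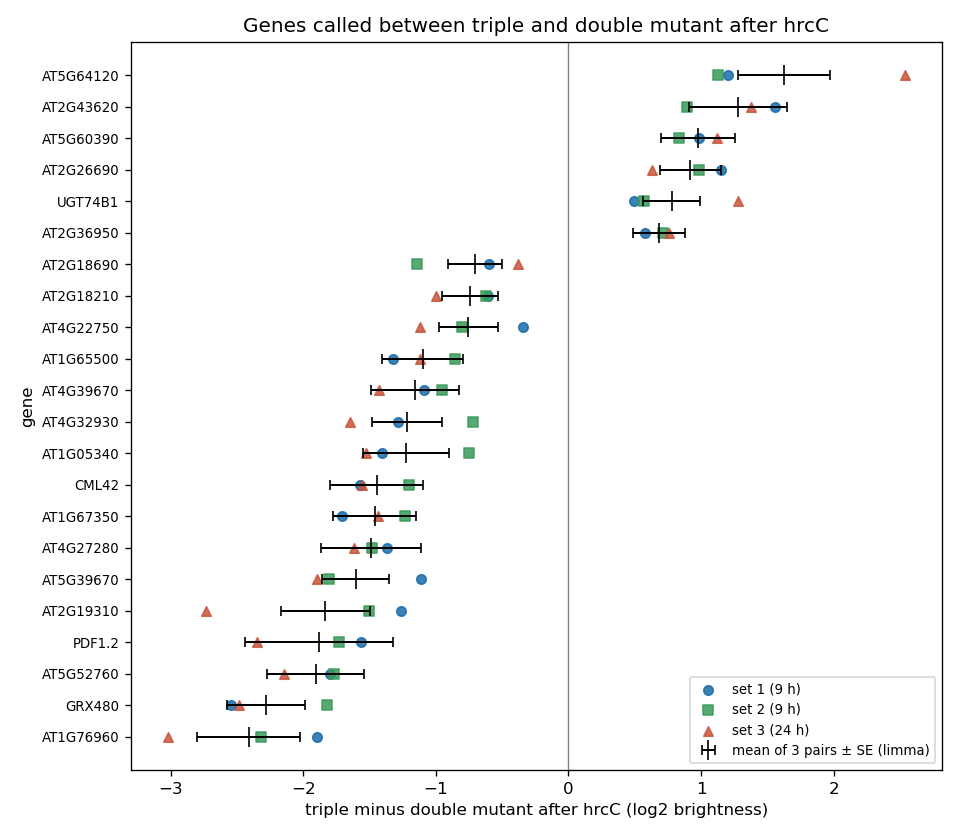
Triple minus double mutant after hrcC (x axis, log2 brightness) for the 22 called genes (y axis). Symbols are the 3 sets (circle set 1 and square set 2 at 9 h, triangle set 3 at 24 h), and the black mark and bar are the limma mean and its SE. All 3 pairs lie on the same side of 0 for each of the 22 genes.

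GRX480 (AT1G28480) encodes a glutaredoxin that binds TGA transcription factors and is induced by salicylic acid. It stood at 4.67, 5.31 and 3.46 in the triple mutant (sets 1 to 3), against 7.21, 7.12 and 5.95 in the double mutant. The 24 h array was the lowest of each line, and the lines did not overlap. GRX480 fell by 2.28 (SE 0.30, adjusted p = 0.0014), with pair differences of SD 0.40 (n = 3) and a 95% interval of -2.93 to -1.63. It was the 1 gene still called when set 3 was left out, which leaves the 9 h pairs, and its adjusted p was 0.0548 without the block.

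The other members of the salicylic acid lists did not pass the test. UGT76B1 (AT3G11340) encodes an enzyme that attaches glucose to isoleucic acid, and to salicylic acid as well. It had 2.75, 4.73 and 4.12 in the triple mutant and 3.55, 5.005 and 3.86 in the double mutant. These ranges overlap, and the set 3 pair went the other way from the rest (difference -0.27, SE 0.30, 95% interval -0.93 to 0.39, adjusted p = 0.599). The transcription factor gene WRKY53 (AT4G23810) differed by -0.12 (SE 0.27, 95% interval -0.71 to 0.47), with 4.34, 4.18 and 4.14 in the triple mutant and 3.83, 4.62 and 4.58 in the double mutant. WRKY22 and WRKY29, which act in pattern-triggered signalling, differed by 0.03 (SE 0.20) and 0.04 (SE 0.34), and WRKY6 by 0.44 (SE 0.25). Of the 4 WRKY genes 0 were called by limma (lowest adjusted p = 0.263), against 12.2% of all 181 genes, and 4 genes are too few to set apart from that share.

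AT1G76960 stood at 4.34, 4.22 and 3.02 in the triple mutant, against 6.23, 6.54 and 6.04 in the double mutant. The gap was widest in the 24 h pair. It fell by 2.41 (SE 0.39, adjusted p = 0.00343), and the call held without each of the 6 arrays in turn and without the block.

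The EF-hand proteins bind calcium, an early messenger of pattern recognition. AT5G39670 stood at 2.67, 2.80 and 2.34 in the triple mutant, against 3.79, 4.60 and 4.24 in the double mutant, without overlap, and fell by 1.61 (SE 0.25, adjusted p = 0.00343). AT4G27280 stood at 3.22, 3.26 and 3.05 in the triple mutant and 4.59, 4.74 and 4.67 in the double mutant. Its 3 pair differences lay close together (SD 0.13) and it fell by 1.49 (SE 0.38, adjusted p = 0.0344). CML42 (AT4G20780), a calmodulin-like gene, stood at 4.07, 4.00 and 4.12 in the triple mutant and 5.64, 5.21 and 5.68 in the double mutant, and fell by 1.45 (SE 0.35, adjusted p = 0.0321). These 3 calls held under median centring and quantile normalization. The calls of AT4G27280 and CML42 were lost without any 1 of the 6 triple and double mutant arrays, while that of AT5G39670 held. A pair of further calmodulin-like or EF-hand genes on the array, grouped by family after values had been seen, differed by -1.10 (AT2G41410, SE 0.41, adjusted p = 0.0871) and -0.32 (AT2G41090, SE 0.48).

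AT5G52760 had 3.40, 2.91 and 2.47 in the triple mutant and 5.20, 4.68 and 4.62 in the double mutant. It fell by 1.91 (SE 0.37, adjusted p = 0.00951), in each pair by a similar step (SD 0.21). Its call was lost without triple mutant array 1 (-1.78) or 3 (-1.95) or double mutant array 3 (-1.70). AT5G60800, the other measured gene of that domain list, differed by -0.84 (SE 0.34, adjusted p = 0.112), with triple mutant arrays at 3.08, 3.18 and 2.38 and double mutant arrays at 3.71, 3.65 and 3.81. AT2G36950, also of the heavy-metal-associated family but outside the list, rose by 0.68 (SE 0.20, adjusted p = 0.0465). That call was lost without each of the 6 arrays in turn, and also over all probes (adjusted p = 0.052), without dim genes (0.0533) and with trended robust moderation (0.059).

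PDF1.2 (AT5G44420) was lower in the triple mutant, at 5.93, 5.95 and 5.69, than in the double mutant, at 7.50, 7.68 and 8.04. The 3 arrays of each line lay close together and did not overlap. The gene fell by 1.88 (SE 0.56, adjusted p = 0.0486), just inside the threshold. The adjusted p was 0.0545 after median centring and 0.0594 after quantile normalization, and the call was lost without any 1 of the 6 arrays (differences from -2.35 to -1.54).

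Among stress and chaperone genes, AT2G19310, a small heat shock protein-like gene, stood at 6.37, 5.53 and 4.90 in the triple mutant and 7.63, 7.03 and 7.64 in the double mutant. It fell by 1.83 (SE 0.34, adjusted p = 0.00809), and the 24 h pair had the widest gap. Without triple mutant array 3 it differed by -1.54 and without double mutant array 3 by -1.53, neither called. The other 5 genes of the Hsp70, small heat shock and FKBP family, grouped after values had been seen, were not called, where 12.2% of all 181 genes were. Hsp70-2 differed by -0.42 (SE 0.20), and BIP1 (AT5G28540), the chaperone of the endoplasmic reticulum, by 0.86 (SE 0.30, adjusted p = 0.0719). BIP1 had 5.58, 6.64 and 7.77 in the triple mutant and 5.43, 6.08 and 5.91 in the double mutant, so most of its difference came from the 24 h pair, and it was 0.50 without triple mutant array 3 and 0.55 without double mutant array 3.

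The remaining falls named by size were those of AT1G67350 (fell by 1.46, SE 0.31, adjusted p = 0.0156), AT4G32930 (fell by 1.22, SE 0.26), AT1G05340 (fell by 1.23, SE 0.32) and AT4G39670, a glycolipid transfer protein-like gene (fell by 1.16, SE 0.33). AT1G67350 stood at 6.17, 5.74 and 5.50 in the triple mutant, below the 7.88, 6.97 and 6.94 of the double mutant. AT1G05340 and AT4G39670 lost their calls under median centring (adjusted p = 0.0544 and 0.0611). Further calls, named here after their values were seen, were AT1G65500, AT4G22750, AT2G18210 and AT2G18690, which fell by 1.10, 0.76, 0.74 and 0.71 and were called under neither rescaling.

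**Figure D2:**
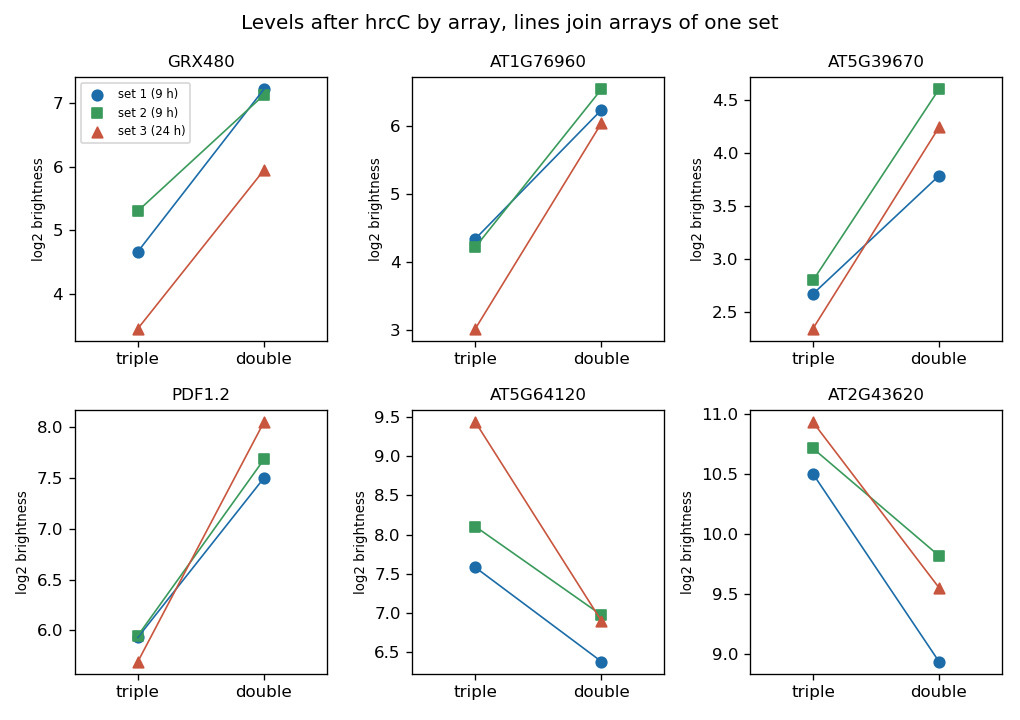
Levels after hrcC (y axis, log2 brightness) of 6 genes on the 3 triple mutant arrays (left) and the 3 double mutant arrays (right) of each panel, with lines joining arrays of 1 set. GRX480, AT1G76960, AT5G39670 and PDF1.2 are lower on all triple mutant arrays, and AT5G64120 and AT2G43620 are higher on all of them.

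Of the genes that rose, AT5G64120 encodes a class III peroxidase of the cell wall. It had 7.58, 8.10 and 9.44 in the triple mutant and 6.38, 6.97 and 6.90 in the double mutant. It rose by 1.62 (SE 0.35, adjusted p = 0.0156), and the 24 h triple mutant array, the highest, widened that gap: without it the difference was 1.10 (adjusted p = 0.0566). The call was also lost without double mutant array 1 (1.74), 2 (1.60) or 3 (1.53), though the difference moved less. The other 2 class III peroxidase genes differed by 0.73 (AT2G37130, SE 0.23, adjusted p = 0.0619) and -0.19 (AT5G19890, SE 0.22).

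AT2G43620, a chitinase family gene, was among the brightest on the array, at 10.5, 10.7 and 10.9 in the triple mutant and 8.94, 9.82 and 9.55 in the double mutant. It rose by 1.28 (SE 0.37, adjusted p = 0.0465), but after quantile normalization the difference was 0.67 and not called (adjusted p = 0.165). Its call was also lost without any 1 of the 6 triple and double mutant arrays. The chitinase gene CHI (AT2G43570) did not move with it: it had 4.17, 4.25 and 3.08 in the triple mutant and 4.34, 4.66 and 3.98 in the double mutant, a difference of -0.49 (SE 0.22, adjusted p = 0.145).

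Other rises were smaller. AT2G26690, of the nitrate and peptide transporter family, had 5.92, 5.50 and 5.14 in the triple mutant and 4.77, 4.52 and 4.51 in the double mutant, and rose by 0.92 (SE 0.23, adjusted p = 0.0344). UGT74B1 (AT1G24100), a glucosyltransferase of glucosinolate synthesis, rose by 0.78 (SE 0.22, adjusted p = 0.0465), and AT2G25450, a dioxygenase of the same pathway, differed by 1.11 without passing (SE 0.38, adjusted p = 0.0717). The elongation factor gene AT5G60390, on the housekeeping list, rose by 0.98 (SE 0.28, adjusted p = 0.0465), at 8.57, 8.84 and 9.10 in the triple mutant and 7.59, 8.01 and 7.98 in the double mutant, while the other gene on that list, TUB6, differed by 0.67 (SE 0.33, adjusted p = 0.205). The rise of AT5G60390 was not called after quantile normalization (0.91, adjusted p = 0.0823) or with trended robust moderation. The calls of AT2G26690, UGT74B1 and AT5G60390 were each lost without any 1 of the 6 triple and double mutant arrays. AT3G22440, also higher in all 3 pairs, differed by 0.75 without passing (SE 0.27, adjusted p = 0.0803), and by 0.44 without triple mutant array 3.

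Across the gene lists, 28 of 181 genes were measured, of which 6 fell and 2 rose (28.6% called, against 12.2% of all genes), with a median of -0.16, the same as over all genes. The lists were chosen with earlier results of these data known, so this share is a description. The lists for sulfate assimilation (APS3 at 0.28 and SIR at 0.64), for AAA-type ATPases (AT3G28540 at -0.19 and AT3G28510 at -0.25), tryptophan and camalexin (AT2G04400 at 0.45) and abscisic acid, cold and dehydration (COR47 at 0.25) had 0 members called by limma. The 4 hydrolase and phosphorylase-like genes were likewise not called: AT4G17470 differed by -0.99 (adjusted p = 0.0655; -0.53 without triple mutant array 3), AT1G54010 by 0.09, AT4G24340 by -0.004 and AT4G24350 by 0.49. Of the 6 other UDP-glycosyltransferase genes beside UGT74B1 none was called (lowest adjusted p = 0.138). The 159 genes that were not called ranged from -1.28 (AT2G28400, adjusted p = 0.0519) to 1.11 (AT2G25450).

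The count of calls depended on each array: it was 5, 7 and 3 without triple mutant arrays 1, 2 and 3, and 5, 8 and 3 without double mutant arrays 1, 2 and 3. GRX480, AT1G76960 and AT5G39670 were called in all 6 cases, and no other of the 22 was. Leaving out Col-0 array 1, which enters only the block and the spread, gave 35 calls, and leaving out pad4-1 array 3 gave 13.

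The 24 h pair was next set against the 9 h pairs. limma called 0 of 181 genes here (10 genes, 5.52%, at an unadjusted p under 0.05), with the lone 24 h pair taken to vary like the others, and set and time cannot be told apart. The lowest p values belonged to AT4G20150 (24 h pair minus 9 h pairs -1.69, SE 0.42), BIP1 (1.51, SE 0.43) and the aspartyl protease gene AT2G39710 (-1.30, SE 0.45), all with adjusted p values of 0.633 or more. Differences were more spread in the 24 h pair, where 29 genes lay below -1 and 11 above 1, than in set 1 (16 and 4) and set 2 (12 and 3).

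Whether PAD4 loss acted differently in the absence of CBP60g and CBP60h was asked by subtracting the pad4-1 minus Col-0 difference from the triple minus double difference, both after hrcC and with no array in common. The test called 4 genes (2.21%; 33 genes, 18.2%, at an unadjusted p under 0.05), all lower: GRX480, PDF1.2, AT2G19310 and AT1G67350. Between pad4-1 and Col-0 themselves 2 genes (1.1%; 20 genes, 11.0%, at an unadjusted p under 0.05) were called, CHI (fell by 1.42, SE 0.22) and Hsp70-2 (fell by 1.10, SE 0.20). Neither was called between triple and double mutant, where they differed the same way, by -0.49 and -0.42. As 12.2% of all 181 genes were called there, the lack of overlap for 2 genes is only a description. Across the 181 genes the differences of triple against double mutant and of pad4-1 against Col-0 correlated at 0.05.

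GRX480 had 7.23, 7.76 and 5.77 in pad4-1 and 7.65, 6.87 and 6.59 in Col-0, a difference of -0.11 (SE 0.30), against the fall by 2.28 between triple and double mutant. The interaction was -2.17 (SE 0.42, adjusted p = 0.039). AT1G67350 differed by 0.51 (SE 0.31) and AT2G19310 by 0.24 (SE 0.34) between pad4-1 and Col-0, with interactions of -1.97 (SE 0.44) and -2.08 (SE 0.48, adjusted p = 0.0472 each). For AT1G67350 the levels were 6.85, 7.48 and 6.76 in pad4-1 and 7.38, 5.89 and 6.28 in Col-0, which overlap. For AT2G19310 they were 7.24, 6.83 and 6.39 in pad4-1 and 7.64, 5.61 and 6.48 in Col-0, which overlap too. The interaction call was lost without 6 of the 12 arrays in turn for GRX480, and without 10 each for AT1G67350 and AT2G19310.

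PDF1.2 was lower in the triple than in the double mutant, whereas between pad4-1 and Col-0 the values ran the other way without a call. It had 7.40, 6.82 and 7.59 in pad4-1, but 7.21, 4.66 and 4.05 in Col-0, a difference of 1.97 (SE 0.56, adjusted p = 0.2), and the interaction was -3.85 (SE 0.79, adjusted p = 0.039). The Col-0 array of set 1 stood apart from the rest of Col-0: the interaction was -4.81 without it. This was not confined to PDF1.2. Across the 181 genes that array correlated at 0.91 and 0.88 with Col-0 of sets 2 and 3. With the double mutant arrays of sets 1, 2 and 3 it correlated at 0.93, 0.94 and 0.95. It enters every pad4-1 minus Col-0 difference given here, and the reason for its position was not tested. The call was lost without 9 of the 12 arrays in turn, those of each genotype among them, with interactions from -4.81 to -3.14 over the 12. None of these 4 interactions was called without the set as a block, and left-out arrays of the 4 genotypes moved the count of calls between 0 and 22, with 22 without Col-0 array 1.

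**Figure D3:**
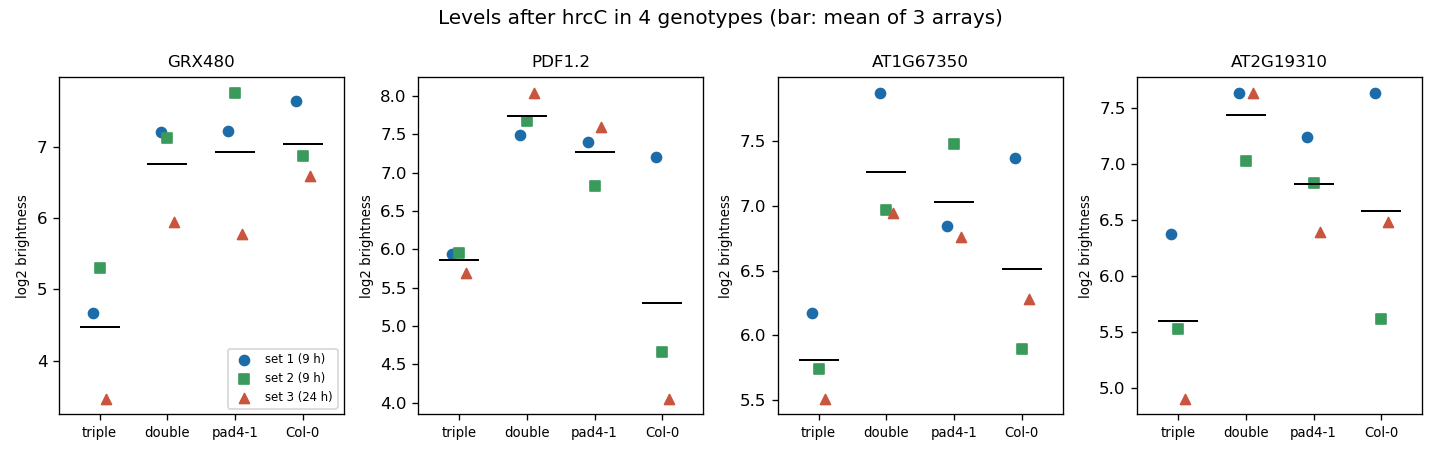
Levels after hrcC (y axis, log2 brightness) of the 4 genes called in the test of the interaction, in the triple mutant, double mutant, pad4-1 and Col-0 (x axis). Symbols are the 3 sets and bars the means of 3 arrays. The triple mutant has the lowest mean for GRX480, AT1G67350 and AT2G19310, while PDF1.2 is lower still on the Col-0 arrays of sets 2 and 3.

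The same lines were then compared between bacteria. Under Psm, triple and double mutant differed in 65 of 181 genes (35.9%; 72 genes, 39.8%, at an unadjusted p under 0.05), 49 lower (27.1%) and 16 higher (8.84%). Of the 22 genes called after hrcC, 10 were also called under Psm, 45.5% of the hrcC calls and 15.4% of the Psm calls, all 10 in the same direction. These were GRX480, AT1G76960, AT5G39670, AT4G27280, CML42, AT5G52760, AT4G39670, AT2G18210 and AT2G18690, all lower, and AT2G26690, higher. The differences under hrcC and Psm, which share no array, correlated at 0.44 across the 181 genes.

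The difference between bacteria itself was called for 30 genes (16.6%; 56 genes, 30.9%, at an unadjusted p under 0.05). Triple minus double was higher after hrcC than after Psm for 20 of them (11.0%) and lower for 10 (5.52%). The bacterial strain changes here together with the time of sets 1 and 2. For BIP1, triple minus double was 0.86 after hrcC and -1.42 after Psm, with 4.35, 5.09 and 4.82 in the triple mutant and 6.22, 5.82 and 6.47 in the double mutant under Psm. The difference between bacteria was 2.27 (SE 0.40, adjusted p = 0.00238), and in set 3, where both harvests are labelled 24 h, it was 3.51. The aspartyl protease gene AT3G51330 differed by 0.57 after hrcC and -1.21 after Psm (between bacteria 1.78, SE 0.31, adjusted p = 0.00238).

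AT3G54150 and the berberine bridge enzyme-like gene AT1G26380 differed by -0.15 and 0.03 after hrcC, but by -1.92 and -1.64 after Psm, which made differences between bacteria of 1.77 (SE 0.34) and 1.67 (SE 0.40). Both genes were dim after hrcC in each line, between 1.70 and 2.80 on all 6 arrays. AT5G64120 was the opposite case, with 1.62 after hrcC and -0.01 after Psm, where it stood at 4.06, 4.28 and 4.31 in the triple mutant and 4.15, 4.16 and 4.36 in the double mutant (between bacteria 1.63, SE 0.42, adjusted p = 0.0118).

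In the other direction, PDF1.2 differed by -1.88 after hrcC and 0.75 after Psm (between bacteria -2.63, SE 0.80, adjusted p = 0.0333). Its Psm levels were 5.91, 5.52 and 4.50 in the triple mutant and 5.83, 3.41 and 4.45 in the double mutant, so that set 2 held nearly all of the Psm difference. The call was lost without 8 of the 12 arrays in turn, with differences between bacteria from -3.10 to -1.90 over the 12, the last without the set 2 double mutant array under Psm, and also without the block (adjusted p = 0.0791). AT4G17470, an alpha/beta hydrolase gene, had 4.01, 3.64 and 2.38 in the triple mutant and 4.40, 4.53 and 4.08 in the double mutant after hrcC. Under Psm it was much brighter and higher in the triple mutant, at 8.74, 8.44 and 8.20 against 7.54, 7.53 and 7.24 in the double mutant (between bacteria -2.02, SE 0.50, adjusted p = 0.0103). AT3G28270, the GDSL lipase-like gene AT1G54010 and the Dof transcription factor gene AT2G28510 differed by 0.29, 0.09 and -0.28 after hrcC and by 2.03, 1.73 and 1.16 after Psm, with differences between bacteria of -1.74 (SE 0.57), -1.64 (SE 0.37) and -1.44 (SE 0.28). The call of AT3G28270 was lost without 10 of the 12 arrays in turn, while those of AT1G54010 and AT2G28510 held without each of them.

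GRX480 fell after both bacteria, by 2.28 after hrcC and by 1.48 after Psm, and the difference between them was -0.80 (SE 0.38, adjusted p = 0.16). UGT76B1 fell by 1.79 after Psm, against a difference of -0.27 after hrcC, and its difference between bacteria was 1.52 (SE 0.41, adjusted p = 0.0159). The fall of AT5G39670 was larger after Psm, with a difference between bacteria of 1.43 (SE 0.47, adjusted p = 0.0459). Its triple mutant arrays after hrcC all lay below 3.15, the lower quartile of all values. Whether the low end of the scale limited that fall was not tested. Without the block, 11 genes had a called difference between bacteria, and without set 3 there were 2.

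**Figure D4:**
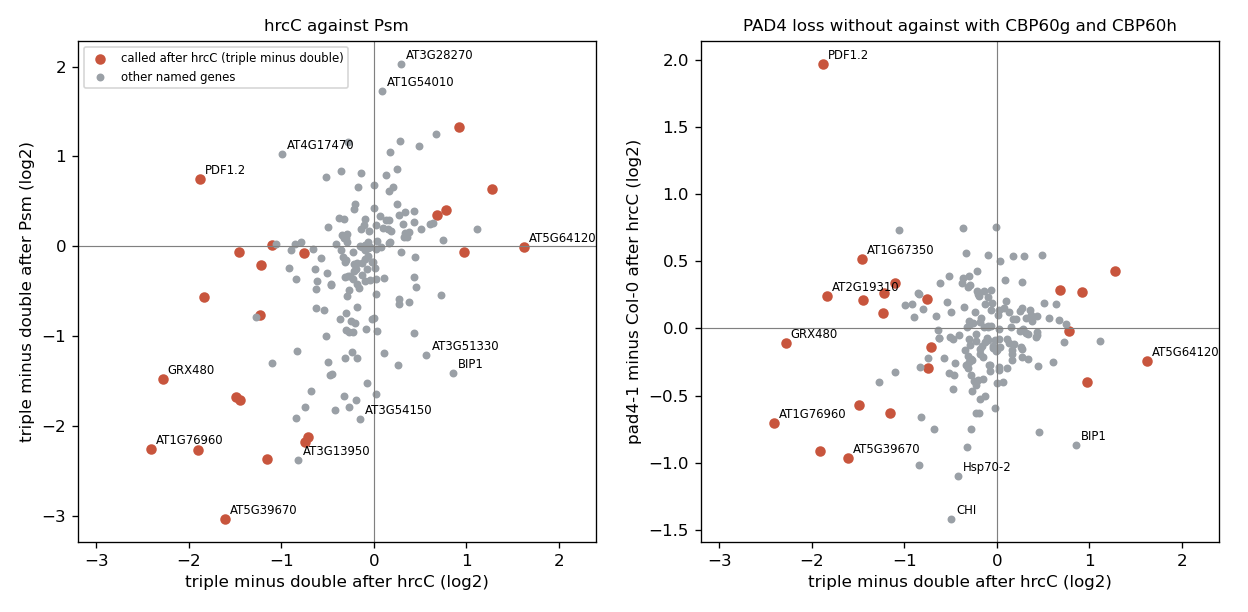
Triple minus double mutant after hrcC (x axis of both panels, log2) against triple minus double mutant after Psm (left, y axis) and against pad4-1 minus Col-0 after hrcC (right, y axis), with 1 point for each of 181 genes and the 22 genes called after hrcC in red. GRX480, AT1G76960 and AT5G39670 lie low on both axes on the left, and PDF1.2 lies at -1.88 on the x axis and 1.97 on the y axis on the right.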

How the data were processed

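Transcript levels were measured on 27 one-colour arrays (Alexa555) of 576 probes. The deposited log2 values were used as the authors gave them. The base of the logarithm is not stated; the range, 0.66 to 11.4 and never below 0, was taken as base 2. How scanning, background and normalization were handled is not given in the sources. Precision is limited by the number of arrays, since the values come without counts. Gene names are those of the platform table and may be outdated: 181 probes had 1 name, 0 had several and 395 had none, and all 181 names matched the reference gene table of assembly TAIR10.1, used for names only.

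The main model (limma 3.58.1, R 4.3.3, lmFit and eBayes) held genotype means and the set as a block over the 12 hrcC arrays of the triple mutant, double mutant, pad4-1 and Col-0. cbp60h was left out because its set 3 array was harvested at 9 h. The comparison between bacteria used 24 arrays, with sets as blocks within each treatment. All tests were two-sided. P-values were adjusted by Benjamini-Hochberg across the 181 genes, with a call at an adjusted p under 0.05. Every adjusted p is from limma. The labels describe each set as 1 experiment. Deviations from genotype means correlated at 0.45, 0.34 and 0.39 between triple and double mutant arrays of sets 1, 2 and 3 (median 0.29 over all same-set pairs and -0.13 over pairs from different sets). Within a genotype these deviations cancel over the sets, so the 2 medians are tied to each other. The median over different sets is therefore no separate evidence of pairing. The labels call the sets biological replicates.

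Named genes were up to 12 called genes each way whose 3 pairs agreed in sign, filled to 10 each way with uncalled ones, up to 5 called genes each way for the other comparisons (the 3 of lowest p where none was called), and the measured members of the gene lists. The members and lists were chosen with earlier results of these data known, and families were grouped after values had been seen. In simulated data 45 of 181 genes were changed (20 repeats). There the triple against double mutant test recovered 20.7%, 81.3% and 99.7% of changes of 0.5, 1 and 2. Of its calls there, 4.12% were false. Whether these rates hold for the measured arrays was not tested. Alternatives were the block, the arrays sharing the spread, median centring, quantile normalization, all probes, a filter on dim genes, trended robust moderation, and arrays or sets left out.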

Additional observations from a re-analysis of the deposited data

Results flagged for a closer look

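After hrcC the test of the interaction called 4 genes for a PAD4 effect that differed between absence and presence of CBP60g and CBP60h: PDF1.2 (-3.85), GRX480 (-2.17), AT2G19310 (-2.08) and AT1G67350 (-1.97). None of the 4 was called without the replicate block, and each call was lost without 6 or more of the 12 arrays in turn. Triple minus double mutant differed between hrcC and Psm, by the test of that difference, for BIP1 (2.27), AT3G51330 (1.78), AT3G54150 (1.77), AT1G26380 (1.67) and AT5G64120 (1.63), which were higher after hrcC, and for PDF1.2 (-2.63), AT4G17470 (-2.02), AT3G28270 (-1.74), AT1G54010 (-1.64) and AT2G28510 (-1.44), which were lower. In set 3, with both harvests labelled 24 h, these 10 values kept their sign, with no test possible on 1 pair each. For 5 of the 10 the set 3 value lay more than 1 SD of the 3 sets from the value over all sets: BIP1 (3.51), AT5G64120 (2.58), AT3G51330 (1.54), AT4G17470 (-2.66) and AT3G28270 (-2.28). Of the 10 calls between bacteria, those of PDF1.2 and AT3G28270 were lost without 8 and 10 of the 12 arrays in turn, and the others held.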

How the results depend on the processing

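The 22 calls between triple and double mutant after hrcC became 2 without the replicate block, 48 when only the 6 triple and double mutant arrays set the spread, and 53 of 576 when all probes were tested, and ranged from 3 to 35 over single left-out arrays, with 1 without set 3. Under the other settings that kept all arrays the count stayed within 1.5 times of 22 (15 after quantile normalization to 29 with 24 arrays). Of the 22, 15 were still called after median centring, 13 after quantile normalization, and 12 in every alternative of this kind other than the missing block in which they were tested. For the differing effect of PAD4 loss the 4 calls of 181 genes became 0 without the replicate block, 11 with 24 arrays and 7 after quantile normalization. The count became 14 of 576 over all probes, 8 of 133 without dim genes, and 0 to 22 over left-out arrays. For hrcC against Psm the 30 calls of 181 genes became 11 without the replicate block and 159 of 576 over all probes. There were 18 to 34 over single left-out arrays and 2 without set 3. For the 24 h pair against the 9 h pairs there was 1 call with 24 arrays, and leaving out either set 3 array of triple or double mutant gave no value. Uncalled genes near 0 changed sign: WRKY53 to 0.039 after median centring, and AT4G24340 to 0.16 after median centring and 0.17 after quantile normalization. Over left-out arrays or sets the differences ran from -0.54 to 0.0096 for UGT76B1, -0.51 to 0.095 for WRKY53, -0.096 to 0.12 for WRKY22, -0.31 to 0.25 for WRKY29, -0.094 to 0.47 for COR47, -0.50 to 0.070 for AT3G28540, -0.13 to 0.38 for AT1G54010 and -0.14 to 0.15 for AT4G24340. Fewer arrays leave fewer degrees of freedom; the cause of the other moves was not tested.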
